A study of Homo sapiens with 9 samples.

Results

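The alcohol dehydrogenase family was followed across 9 RNA-seq samples of Huh7 cells, an established human hepatocellular carcinoma (HCC) line. The members were chosen by their Entrez gene numbers, ADH1A 124, ADH1B 125, ADH1C 126, ADH4 127, ADH5 128, ADH6 130 and ADH7 131, which gives 7 genes, 6 of which have a row among the 20575 genes of the files. ADH7 was not analysed here. The family was selected on the level of ADH1B in siLATS1 against siControl, where it was among the genes raised most, so the values of that comparison are given as a description, and a count of members there is no support for a rise.

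The cells were transfected with siControl, siLATS1 or siLATS2 by RNAiMAX, 3 samples each, and RNA was taken 48 h later. LATS1 and LATS2 are kinases of the Hippo pathway, and the comparisons ask whether reducing one or the other changes the RNA of these cells. The labels name only the siRNA, while the Methods of the study also speak of cells treated with sorafenib. All groups are 1 cell line, so the spread between the samples is that of triplicate cultures of 1 line, and the labels do not say how far the replicates were handled apart.

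Alcohol dehydrogenases move hydride between an alcohol and NAD+ and so turn alcohols into aldehydes or ketones. The class I enzymes, encoded by ADH1A, ADH1B and ADH1C, carry most of the ethanol oxidation of the adult liver, ADH4 encodes the class II enzyme of the liver, and ADH5 encodes the class III enzyme, which oxidises the glutathione adduct of formaldehyde and reduces S-nitrosoglutathione in nearly every tissue. ADH6 encodes the little studied class V enzyme of liver, and ADH7 the class IV enzyme of the upper digestive tract.

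The 7 genes lie head to tail on the minus strand of chromosome 4, at chr4:99992129-100356667 in GRCh37, a span of 364.5 kb. From the low-coordinate end the order is ADH5, ADH4, ADH6, ADH1A, ADH1B, ADH1C and ADH7, and each main transcript of the GENCODE annotation has 9 exons. ADH1B spans chr4:100226128-100242558, ADH1A chr4:100197526-100212160 and ADH1C chr4:100257654-100273903. ADH6 spans chr4:100123795-100140694 and ADH5 chr4:99992129-100009952. An antisense gene, LOC100507053, runs through ADH4, ADH6 and ADH1A on the plus strand and does not reach ADH1B or ADH1C. Whether the authors' counting used the strand is not given in the sources used here. If it did not, reads from exon bases that these genes share with the antisense gene could not be told apart. Only the spans were compared, and an overlap of exons was not checked.

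The class I transcripts are close copies of each other, which matters for their counts. In local alignment ADH1A and ADH1B were 93.9% identical, ADH1A and ADH1C 93.5%, and ADH1B and ADH1C 94.6%, whereas all other pairs of the family were between 71.7% and 75.6% identical. The authors kept only reads with a single place in the genome. Of all stretches of 81 bases, the read length, that lie within 1 exon, 96.7% were unique in GRCh37 for ADH1A, 97.8% for ADH1B and 93.3% for ADH1C, so most reads of each gene could be placed. A read with sequencing errors can still be placed on the wrong copy, and the values of these 3 genes carry that uncertainty.

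The 250 bases before the start of the main transcript show how the raised members compare with each other and with ADH5. They were read from GRCh37 on the minus strand, 5′ to 3′, and capitals mark matches to any of the 6 motifs listed after the sequences. The windows are chr4:100212143-100212392 for ADH1A, chr4:100242559-100242808 for ADH1B, chr4:100273904-100274153 for ADH1C, chr4:100140404-100140653 for ADH6 and chr4:100009940-100010189 for ADH5.
ADH1A: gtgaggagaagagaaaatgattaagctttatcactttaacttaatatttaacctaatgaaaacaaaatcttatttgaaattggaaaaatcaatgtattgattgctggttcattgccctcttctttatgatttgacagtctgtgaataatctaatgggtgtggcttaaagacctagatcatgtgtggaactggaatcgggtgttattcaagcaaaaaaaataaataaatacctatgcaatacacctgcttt
ADH1B: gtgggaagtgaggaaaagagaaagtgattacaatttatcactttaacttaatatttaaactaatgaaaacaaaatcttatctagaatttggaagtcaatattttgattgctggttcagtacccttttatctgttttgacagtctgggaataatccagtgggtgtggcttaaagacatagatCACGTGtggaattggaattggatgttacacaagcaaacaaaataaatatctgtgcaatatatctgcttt
ADH1C: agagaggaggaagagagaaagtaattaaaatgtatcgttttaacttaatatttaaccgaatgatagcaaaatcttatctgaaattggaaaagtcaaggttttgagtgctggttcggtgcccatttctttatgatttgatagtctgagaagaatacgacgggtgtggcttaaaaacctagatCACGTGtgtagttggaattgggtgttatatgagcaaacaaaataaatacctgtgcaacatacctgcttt
ADH6: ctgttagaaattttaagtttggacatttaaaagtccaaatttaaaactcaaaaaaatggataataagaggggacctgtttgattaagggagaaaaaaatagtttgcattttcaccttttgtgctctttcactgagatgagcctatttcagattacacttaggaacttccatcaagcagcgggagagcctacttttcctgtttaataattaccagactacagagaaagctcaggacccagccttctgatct
ADH5: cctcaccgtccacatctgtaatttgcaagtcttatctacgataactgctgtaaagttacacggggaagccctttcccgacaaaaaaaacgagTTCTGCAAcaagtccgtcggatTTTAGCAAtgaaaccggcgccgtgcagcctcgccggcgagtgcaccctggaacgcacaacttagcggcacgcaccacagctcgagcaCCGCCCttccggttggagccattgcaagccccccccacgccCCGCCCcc

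The class I windows were alike in sequence over their whole length. ADH1A and ADH1B had 84.0% of bases in common, ADH1A and ADH1C 82.0%, and ADH1B and ADH1C 81.6%, compared with 52.4% to 54.8% between a class I window and that of ADH6 and 45.2% to 48.8% with that of ADH5. The longest stretch present in all 3 was the 17 bases tttaacttaatatttaa. They were also poor in CpG, with 1 in ADH1A, 1 in ADH1B, 6 in ADH1C and 1 in ADH6, against 21 in ADH5 and a median of 18 over the same windows of 18921 genes. The window of ADH5 is the only one of the family with a GC box (GGGCGG), with 2 matches, and 60.1% of all windows hold one. On either strand the windows of ADH1A, ADH1B, ADH1C and ADH6 held no match to TATAAA (in 9.1% of all windows), TTGCNNAA of the C/EBP type (7.1%), GTTAAT of the HNF1 type (4.2%) or the TEAD core GGAATG (9.8%). An E-box (CACGTG), searched after the windows had been read, began 69 bases before the start in both ADH1B and ADH1C and was absent from the windows of the other members, against 7.9% of all windows. These motifs do not overlap each other in the sequences shown, and a match describes the letters alone.

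The libraries held 23548247 to 32193525 counted reads, and 1 read is worth 0.0311 to 0.0425 CPM (reads of a gene scaled to a common library total). Levels are given as CPM scaled by TMM (trimmed mean of M values) factors. Fold changes are on log2(CPM + 1), which understates the change of genes near 0, with the standard error (SE) of limma over 12901 genes that reached 1 CPM in at least 3 samples. The siControl replicate 1 stood apart, with a Pearson's r of 0.859 and 0.866 to the other siControl samples against 0.995 between those. LATS1, the targeted gene, was at 110, 55.2 and 62.9 CPM in siControl replicates 1, 2 and 3, at 27.1, 20.1 and 15.6 in siLATS1 and at 54.7, 78.6 and 51.2 in siLATS2, and every siLATS1 sample was below every other sample (log2 fold change −1.78, SE 0.31, limma adjusted p = 0.126 against siControl). LATS2 was not analysed here, so the siLATS2 label was not checked against its target. Hepatocyte-type markers such as ALB and AFP were abundant in all samples, with 11100 to 22000 CPM summed over 8 genes. The 9 fibroblast, endothelial and leukocyte markers summed to 26.5 to 43.6 CPM, and none was at 0 throughout.

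The description begins with the class I gene ADH1B, whose product is a main ethanol-oxidising enzyme of adult liver. ADH1B was at 0.264, 0.0803 and 0 CPM in siControl replicates 1, 2 and 3, at 6.70, 2.57 and 4.86 in siLATS1 and at 0.342, 0.255 and 0.179 in siLATS2. These are 6, 2 and 0 reads in siControl, 196, 72 and 121 in siLATS1 and 11, 7 and 5 in siLATS2. All siLATS1 samples were far above all others, and siLATS1 replicate 2 was the lowest of them. The summed share of reads was 47.0 times that of siControl, with an exact 95% interval of 23.6 to 110 for counting error only. On the log2 scale the difference was 2.29 (SE 0.26), the second largest rise of the 12901 genes tested. Against siLATS2 it was higher by 2.11 (SE 0.26), also given without a test since the gene was chosen for its level in siLATS1. In bulk RNA a change in the number of expressing cells and a change in RNA per cell cannot be told apart, here or for the other members.

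ADH1A, whose product is the class I enzyme most abundant in fetal liver, was at 0.132, 0.121 and 0 CPM in siControl, at 1.64, 1.04 and 1.41 in siLATS1 and at 0.0311, 0.0365 and 0 in siLATS2. The reads behind these values were 3, 3 and 0 in siControl, 48, 29 and 35 in siLATS1, and 1, 1 and 0 in siLATS2. The siLATS1 samples did not overlap with the others. The share of reads was 18.1 times that of siControl (8.04 to 50.3), and the log2 difference was 1.12 (SE 0.12).

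ADH1C, the remaining class I gene, was at 0.0878, 0.121 and 0.0369 CPM in siControl, at 2.32, 1.86 and 1.04 in siLATS1 and at 0.280, 0.182 and 0.215 in siLATS2. It was the only class I gene in which the 3 groups were each apart from the others, siLATS2 lying above siControl and siLATS1 above both. The gap between siLATS2 and siControl rests on 9, 5 and 6 reads against 2, 3 and 1. Of all tested genes 2.87% had all siLATS2 samples above all siControl samples. The share of reads in siLATS1 was 23.5 times that of siControl (10.6 to 65.2, 146 against 6 reads), and the log2 difference was 1.31 (SE 0.17).

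ADH6, the class V gene, was already present in siControl and rests on more reads. It was at 3.69, 2.33 and 1.92 CPM in siControl, at 8.61, 7.43 and 9.36 in siLATS1 and at 2.70, 2.66 and 2.12 in siLATS2. The siLATS1 samples lay above all others, with a mean 3.20 times that of siControl and a log2 difference of 1.40 (SE 0.20). The highest siControl value was that of replicate 1, and without this sample the difference was 1.60.

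ADH5 and ADH4 showed no such separation. ADH5, the formaldehyde-oxidising member, was at 196, 158 and 139 CPM in siControl, at 201, 180 and 171 in siLATS1 and at 175, 179 and 157 in siLATS2, and the groups overlapped in every comparison. Its log2 difference between siLATS1 and siControl was 0.18 (SE 0.15, 95% interval −0.18 to 0.53). ADH4 had 2 reads in siLATS1 replicate 2, 1 read in siLATS2 replicate 2 and 0 in the other 7 samples. At this depth 0 reads allow up to 3 reads, or 0.0932 to 0.127 CPM, so no difference of ADH4 was detectable and it was left out of the test.

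**Figure D1:**
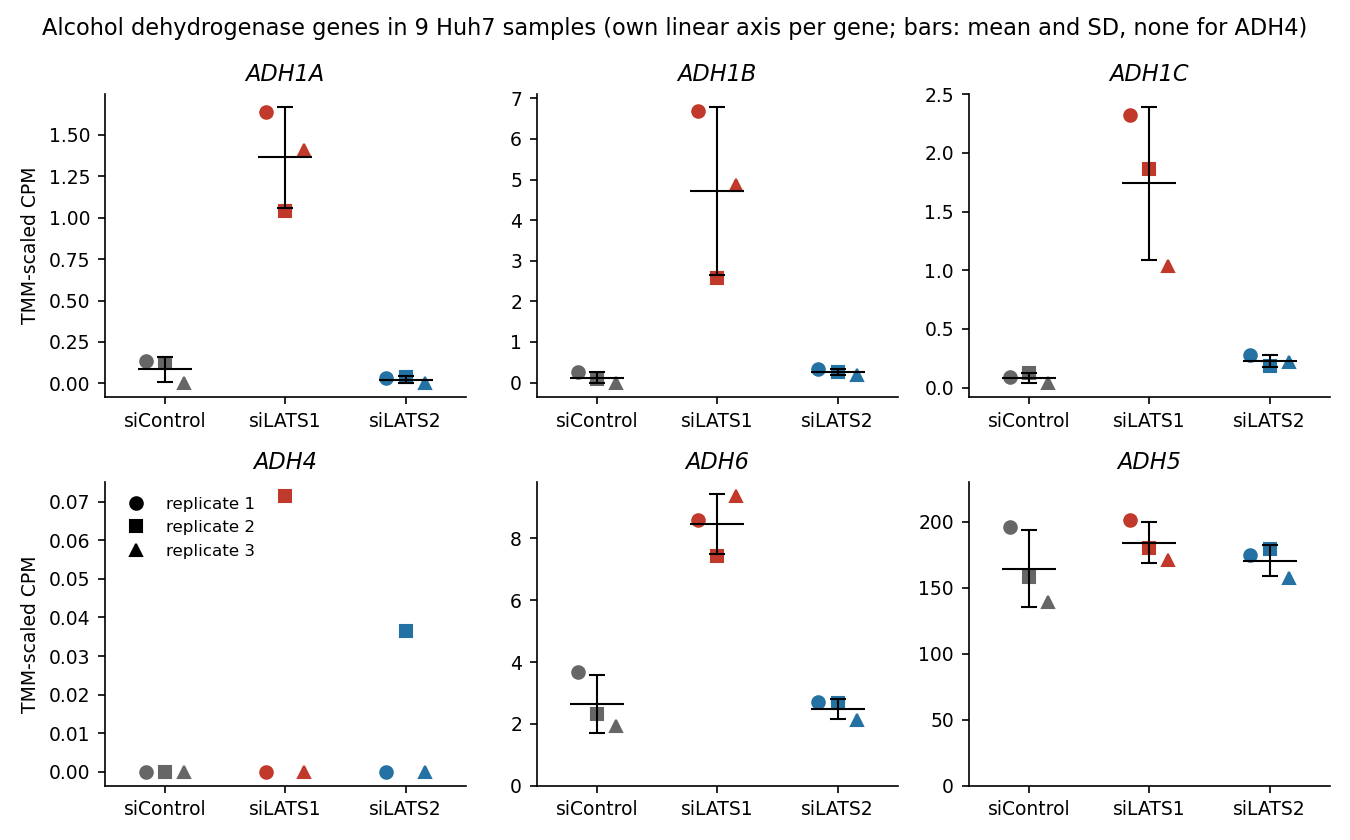
TMM-scaled CPM of each measured member (vertical axis, linear, a scale of its own per gene) in the 3 siControl, 3 siLATS1 and 3 siLATS2 samples, with marker shapes for the replicate numbers, bars for mean and SD, and no bars for ADH4. In ADH1A, ADH1B, ADH1C and ADH6 the 3 siLATS1 points lie above all others, in ADH5 the groups overlap, and ADH4 rests on 3 reads in all.

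The rule fixed how siLATS1 compares with siControl for this family, so the counts there are given beside the background and nothing is read from them. Of the 5 members that passed the filter, 4 lay past the threshold of the study's Methods, an unadjusted p below 0.05 and an absolute log2 difference not smaller than 0.58, which 2.33% of all tested genes passed upwards and 0.589% downwards. In the same 4 all siLATS1 samples were higher than all siControl samples, against 5.77%. ADH1A, ADH1B and ADH1C reached 1 CPM in siLATS1 alone and so entered the tested set only through the group in which they were high. The background itself rests on 1 library, since 300 genes were raised and 76 lowered at that threshold (79.8% raised), against 355 and 348 (50.5%) without siControl replicate 1. After Benjamini-Hochberg adjustment 0.101% of tested genes passed.

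Comparing the genes per length places the change within the family. In CPM per kilobase of the main transcript, ADH5 was at 61.9 ± 11.0 (SD, n = 3) in siControl, 69.5 ± 5.85 in siLATS1 and 64.3 ± 4.47 in siLATS2, by far the highest member in each group. ADH6 was next, at 0.944 ± 0.331, 3.02 ± 0.346 and 0.890 ± 0.117. In siLATS1 the class I genes followed with ADH1C at 1.20 ± 0.446, ADH1B at 1.16 ± 0.508 and ADH1A at 0.936 ± 0.209, which did not differ from each other beyond their spread, and ADH4 was last. In siControl all class I genes were between 0.0282 and 0.0578 CPM per kilobase.

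ADH5 therefore made up most of the family in every sample. Its share of the family's CPM per kilobase was 98.0% to 98.7% in siControl, 98.1% to 98.4% in siLATS2 and 91.1% to 92.7% in siLATS1. The class I genes together took 0.0478% to 0.306% in siControl, 0.310% to 0.443% in siLATS2 and 3.59% to 5.24% in siLATS1, and ADH6 took 1.29% to 1.75%, 1.26% to 1.44% and 3.63% to 4.71%. Neither range of siLATS1 overlapped with those of the other groups. Within class I, the proportions varied between siLATS1 samples, with ADH1B at 37.7%, 24.1% and 41.5% and ADH1C at 36.5%, 48.7% and 24.9% in replicates 1, 2 and 3. No class I gene was the leading one in all 3 samples.

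**Figure D2:**
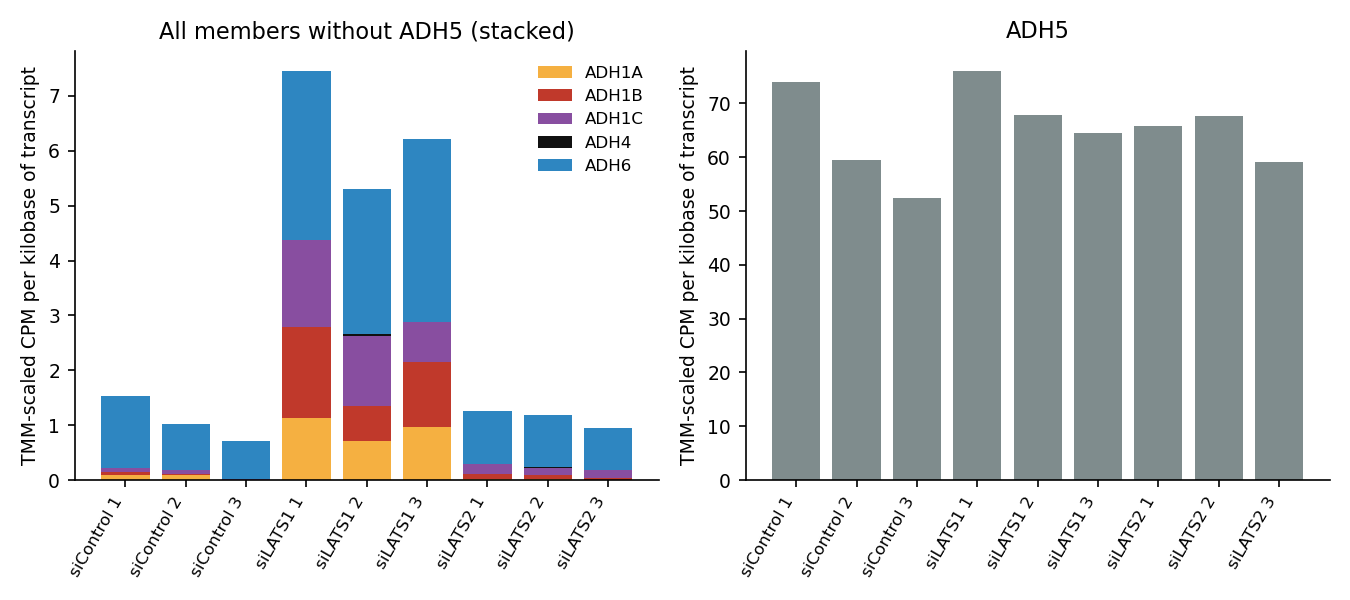
TMM-scaled CPM per kilobase of transcript in each of the 9 samples, with all members but ADH5 stacked on the left and ADH5 on the right, on linear axes from 0. The left stacks are tallest in the 3 siLATS1 samples, where class I genes and ADH6 both contribute, while the ADH5 bars of the 3 groups overlap at 52.4 to 76.0.

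In siLATS2 no member passed a threshold of the limma fit, while the class I genes were too low for their size to be settled. The limma test called 0 of the 5 members at the unadjusted or the adjusted threshold, where 0.217% of tested genes passed upwards, 0.0543% downwards and 0.0% after adjustment. The log2 differences were −0.08 (SE 0.12) for ADH1A, 0.18 (SE 0.26) for ADH1B, 0.18 (SE 0.17) for ADH1C, −0.04 (SE 0.20) for ADH6 and 0.07 (SE 0.15) for ADH5, with limma adjusted p-values of 0.95 to 0.972. ADH1C was the only member with all siLATS2 samples above all siControl samples, which 2.87% of tested genes showed. It rests on 20 reads against 6, a ratio of read shares of 2.88 (1.11 to 8.76). It passed the unadjusted but not the adjusted threshold in edgeR on the recovered reads (log2 fold change 1.41, adjusted p = 1.0) and in limma with a pseudocount of 0.1 (0.86, adjusted p = 0.941). ADH1B had 23 reads against 8, a ratio of 2.48 (1.07 to 6.42), and its groups overlapped. ADH1A had 2 reads against 6, a ratio of 0.288 (0.0284 to 1.61). In edgeR the log2 fold changes were 1.20 for ADH1B and −1.67 for ADH1A, both with an adjusted p of 1.0. The siControl samples are the same in both comparisons.

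Set against siLATS2, ADH1A, ADH1C and ADH6 were again higher in all siLATS1 samples, as were 5.8% of all tested genes. The siLATS1 samples are those by which the family was chosen, so this comparison is not independent of the choice on that side. ADH1A and ADH1C, like ADH1B, had passed the filter only through siLATS1, and their log2 differences of 1.20 (SE 0.12) and 1.13 (SE 0.17) are given without a test. ADH6 reached 1 CPM in all 9 samples, and its log2 difference was 1.44 (SE 0.20). It passed the unadjusted threshold with a limma p of 8.1e-05, as did 1.34% of tested genes upwards and 0.519% downwards. It did not pass after adjustment, with a limma adjusted p of 0.095, nor did any other gene (0.0% of tested genes, with 505 at an unadjusted p under 0.05). DESeq2 on the recovered reads gave ADH6 an adjusted p of 1.55e-07 and called 100 genes in all, whereas edgeR gave 0.13 and called 0. Without siControl replicate 1, which is in neither of these groups but enters the pooled spread, limma gave ADH6 an adjusted p of 0.0191, and over all alternatives its adjusted p lay between 1.55e-07 and 0.619. ADH5 differed by 0.11 (SE 0.15, 95% interval −0.24 to 0.47, limma adjusted p = 1.0).

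**Figure D3:**
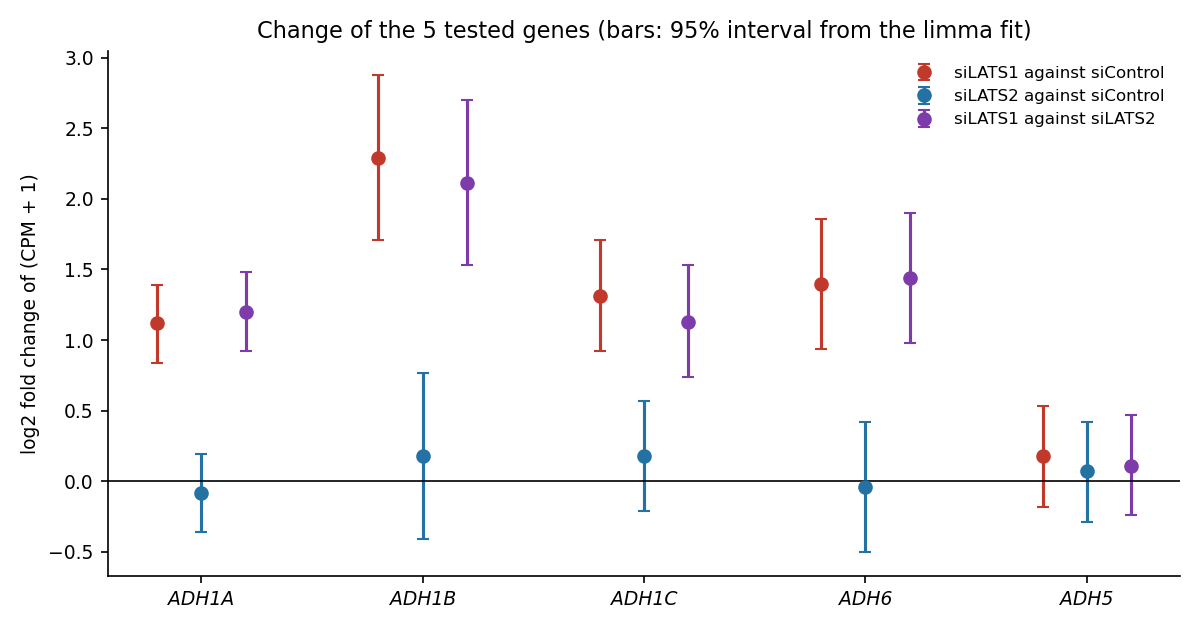
Log2 fold change of (CPM + 1) of the 5 tested members (vertical axis, linear) in siLATS1 against siControl, siLATS2 against siControl and siLATS1 against siLATS2, with bars for the 95% interval of the limma fit. In siLATS1 the 4 raised members lie between 1.12 and 2.29 against siControl and between 1.13 and 2.11 against siLATS2. The intervals of siLATS1 against siControl are a description without a test. So are those of ADH1A, ADH1B and ADH1C in siLATS1 against siLATS2. In siLATS2 against siControl every interval includes 0, as does every ADH5 interval.

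The neighbours on both sides of the cluster were read as well, and no tested one passed the unadjusted threshold. Of the nearest 5 protein-coding genes on each side, 8 had a row in the files and 6 were tested. METAP1, a methionine aminopeptidase 8.2 kb beyond ADH5, differed by −0.15 (SE 0.23) between siLATS1 and siControl. On the same side EIF4E, the cap-binding factor, differed by −0.36 (SE 0.35), TSPAN5, a tetraspanin, by 0.32 (SE 0.16) and RAP1GDS1, an exchange factor for small GTPases, by −0.27 (SE 0.32). On the other side TRMT10A, a tRNA methyltransferase 111.2 kb beyond ADH7, differed by −0.40 (SE 0.27), and MTTP, which loads lipid onto apolipoprotein B and is itself a liver gene, by −0.05 (SE 0.24). None of the 6 passed the unadjusted threshold in any comparison. Per comparison and direction, 0.0543% to 2.33% of all tested genes passed it, so nothing is read from this count. STPG2 and DAPP1 were below the filter in all groups.

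The antisense gene LOC100507053, named here after its values were seen, was at 1.49, 0.844 and 0.701 CPM in siControl, at 1.91, 1.18 and 1.53 in siLATS1 and at 1.06, 0.766 and 0.789 in siLATS2. Its siLATS1 and siControl samples overlapped, and the log2 difference of 0.35 (SE 0.18, limma adjusted p = 0.979) was below the threshold. Against siLATS2 it was higher in all siLATS1 samples, by a log2 difference of 0.43 (SE 0.18, limma adjusted p = 1.0), which is also under the threshold. In CPM, which are not scaled by length, it was lower than ADH6 and higher than ADH1A in every sample. Its part in the values of the family was not tested. The spans of ADH1B and ADH1C lie outside that of the antisense gene.

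Genes acting beside the alcohol dehydrogenases were described by 4 lists. Aldehyde dehydrogenases take up the aldehydes made by this family. Of 14 tested, 1 was raised and 1 lowered in siLATS1 against siControl at the unadjusted threshold, beside 2.33% and 0.589% of all tested genes. The median log2 difference was 0.08 beside 0.02 over all tested genes. The raised one was ALDH3B1, which oxidises fatty aldehydes (1.29 ± 0.701 to 3.04 ± 1.04 CPM, log2 difference 0.84, SE 0.30, limma adjusted p = 0.675). The lowered one was the mitochondrial folate enzyme ALDH1L2 (1.69 ± 0.642 to 0.750 ± 0.120 CPM, log2 difference −0.59, SE 0.17, limma adjusted p = 0.474). Without siControl replicate 1 neither passed. ALDH2, the main acetaldehyde dehydrogenase, was at 76.0 ± 18.3, 74.8 ± 10.1 and 82.2 ± 5.90 CPM in siControl, siLATS1 and siLATS2, and the retinal dehydrogenase ALDH1A1, the most abundant of the list, at 3170 ± 1110, 3240 ± 604 and 3040 ± 233.

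Other routes of ethanol and formaldehyde oxidation showed no call in any comparison, with 0 of 6 tested passing the unadjusted threshold of limma and a median log2 difference of −0.04 in siLATS1. Per comparison and direction, 0.0543% to 2.33% of all tested genes passed, so nothing is read from this count. Catalase (CAT) was at 88.5 ± 9.88 CPM in siControl and 102 ± 9.05 in siLATS1. ESD, which follows ADH5 in formaldehyde oxidation, was at 168 ± 66.9 and 140 ± 17.5, and ACSS2, which activates acetate, at 55.1 ± 8.31 and 49.2 ± 6.49. CYP2E1, the microsomal ethanol oxidase, was at 0.425 ± 0.285 and 0.379 ± 0.111, below the filter.

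Retinol is another substrate of class I, II and IV alcohol dehydrogenases. Of 12 tested genes of retinol handling and retinoic acid, 1 was raised in siLATS1 against siControl at the unadjusted threshold and 0 were lowered. Over all tested genes 2.33% were raised and 0.589% lowered. The median log2 difference of the list was 0.17. The retinol dehydrogenases RDH10 and RDH11 were at 37.9 ± 9.65 and 137 ± 25.2 CPM in siControl and at 34.5 ± 6.36 and 134 ± 10.5 in siLATS1, and neither passed. Without siControl replicate 1 the list had 1 raised and 2 lowered genes.

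Of 14 liver transcription factors known at alcohol dehydrogenase promoters, 0 passed the unadjusted threshold of limma in siLATS1 against siControl or in siLATS2 against siControl. Of all tested genes 2.33% passed upwards and 0.589% downwards in siLATS1, and 0.217% and 0.0543% in siLATS2. A count of 0 is near these shares, and nothing is read from it. HNF4A was at 252 ± 71.8 CPM in siControl and 262 ± 37.4 in siLATS1, CEBPA at 211 ± 68.5 and 174 ± 21.8, and USF1, an E-box binding factor, at 35.6 ± 14.8 and 39.4 ± 6.60. Against siLATS2, CEBPD was raised in siLATS1 at the unadjusted threshold (5.24 ± 1.65 against 2.84 ± 0.531 CPM, log2 difference 0.67, SE 0.26, limma adjusted p = 1.0). In that comparison 1.34% of all tested genes passed upwards.

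Among the 8 hepatocyte-type markers SERPINA1 and TTR were raised and APOB lowered in siLATS1 against siControl at the unadjusted threshold, which 2.33% of all tested genes passed upwards and 0.589% downwards. Their log2 differences were 0.72 (SE 0.21), 0.77 (SE 0.31) and −0.70 (SE 0.25). Without siControl replicate 1 none of the 3 passed. ALB was at 4280 ± 1710 CPM in siControl and 4790 ± 900 in siLATS1. Of the 5 tested markers of other cell types PECAM1 was lowered, by −0.72 (SE 0.20), and the part of these markers in the values of the family was not tested.

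**Figure D4:**
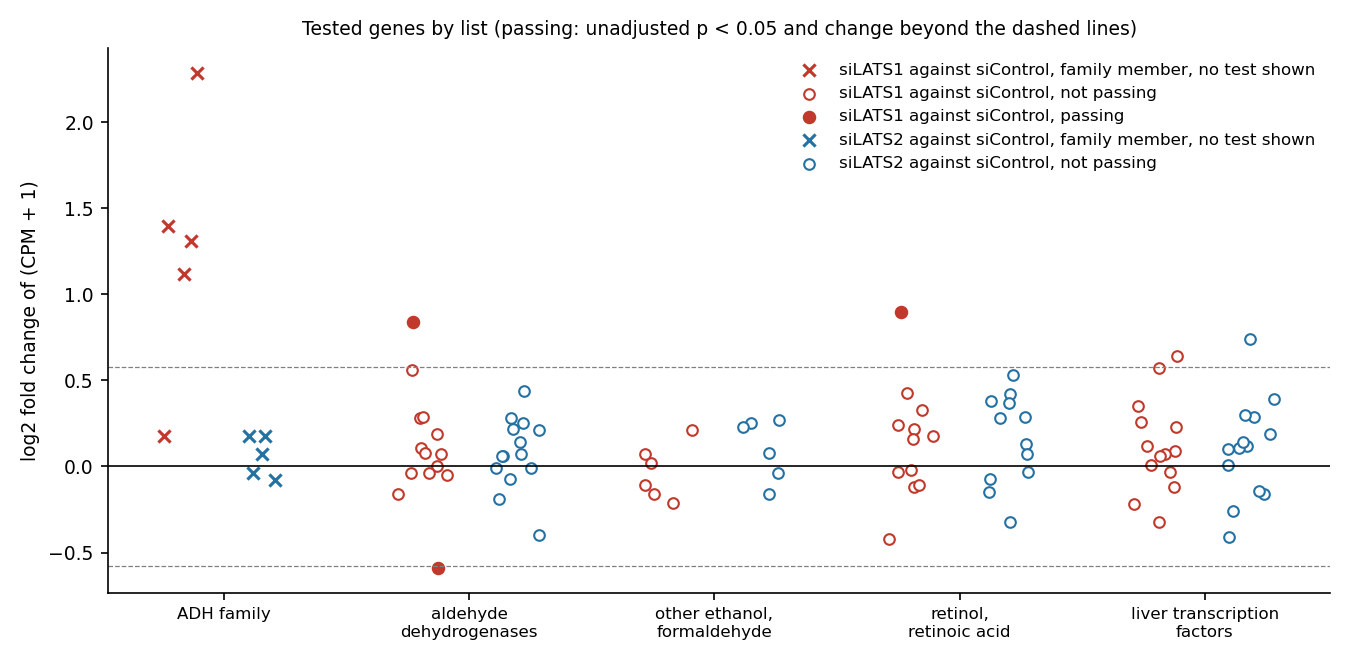
Log2 fold change of (CPM + 1) of each tested gene (vertical axis) by list, for siLATS1 and siLATS2 against siControl, with crosses for family members, filled circles for genes past the unadjusted threshold and open circles for the rest. The 4 raised members lie at 1.12 to 2.29 in siLATS1 against siControl, and ALDH3B1 is the filled circle at 0.84. The family was chosen by that comparison, so its place relative to the other lists is a description only.

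The genes whose pattern over the 9 samples was most like that of ADH1B included other members. By Pearson's r of log2(CPM + 1) with ADH1B, given as a description over samples that share 3 siRNA groups, ADH1A had rank 2 of 12900 genes at 0.986, ADH6 rank 9 at 0.964, ADH1C rank 49 at 0.936 and ADH5 rank 1098 at 0.541. ADH1B was chosen for its level in siLATS1, and ADH1A and ADH1C passed the filter only through siLATS1. High ranks of these genes were thus partly built in, and nothing is read from the ranks of the members. TM4SF4, a membrane protein gene, had rank 1 at 0.988, with means of 2.12, 9.74 and 2.86 CPM in siControl, siLATS1 and siLATS2. The others of the first 10 were PGAP4 (0.978), RALYL (0.974), RNF144A (0.973), FMO1 (0.972), TNFSF10 (0.971), NDST3 (0.970) and SLC22A3 (0.963). FMO1, a flavin monooxygenase, was at 5.70, 12.0 and 6.81 CPM, TNFSF10, the death ligand TRAIL, at 1.58, 7.76 and 1.71, and SLC22A3, an organic cation transporter, at 0.762, 4.08 and 1.18.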

How the data were processed

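RNA-seq of 9 Huh7 samples was analysed, 3 each of siControl, siLATS1 and siLATS2, grouped by the siRNA in the labels. Per the study's Methods, single-end reads of 81 bases were mapped with RNA-STAR to hg19 (GRCh37) keeping unique hits only, and counted over RefSeq exons with qCount of QuasR. The labels name a ribosomal depletion kit and the Methods poly-A+ RNA. The authors deposited CPM, and in each sample 100.0% of the values were whole multiples of 1 read within 0.02 read, so reads and depth (23548247 to 32193525 reads) were recovered from the deposited CPM. A row without a gene number in each file, holding under 0.01% of the reads, was left out, and 20474 of 20575 genes were paired with a symbol.

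CPM were divided by unweighted TMM factors over all genes. Factors over the tested genes had been computed first and were replaced, after their results were seen, to follow the earlier processing of these data. Then log2(CPM + 1) of the 12901 genes that reached 1 CPM in 3 or more samples was fitted with limma 3.58.1 (trend, 3 group means, all 9 samples, adjustment by Benjamini-Hochberg over all genes tested). Alternatives were other scalings, filters and pseudocounts, edgeR 4.0.16 and DESeq2 1.42.0 on the recovered reads, a replicate block and leaving out each sample. edgeR called 5, 0 and 0 genes after adjustment in siLATS1 against siControl, siLATS2 against siControl and siLATS1 against siLATS2. The limma and edgeR fits were tested on simulated data. With 3 against 3 samples an exact permutation test cannot go below 0.1 and was not used. The p-values of the main fit set a group difference against the spread between these samples, pooled over the 3 groups and moderated over all tested genes. Ratios of summed read shares have exact 95% Clopper-Pearson intervals, which cover counting error only.

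Transcripts, windows and coordinates came from GRCh37 and GENCODE 44 (lifted to GRCh37). Levels per kilobase used the length of the main transcript. Named were the members, LATS1, the listed genes past a call or highest in level, the nearest 5 protein-coding genes on each side and the 10 genes most like ADH1B. The values of 2 listed genes are not reported here. The members and lists were chosen with earlier results of these data known.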

Additional observations from a re-analysis of the deposited data

How the results depend on the processing

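The differences of ADH1A, ADH1B, ADH1C and ADH6 in siLATS1 kept their direction in every setting in which they were fitted, against siControl and against siLATS2. All siLATS1 samples lay above all others in these genes, and the family was chosen on siLATS1. Their direction could therefore hardly change, and nothing is read from it. Only ADH6 and ADH5 had enough reads for the filter of 10 reads in every sample. The size of the class I differences depended on the pseudocount, since siControl is near 0: against siControl ADH1B was at 3.02 with a pseudocount of 0.5, 4.58 with 0.1, 5.35 in edgeR and 5.44 in DESeq2. Leaving out 1 sample gave 2.04 to 2.60 for ADH1B, 1.03 to 1.22 for ADH1A, 1.16 to 1.51 for ADH1C and 1.26 to 1.60 for ADH6. Between siLATS2 and siControl, leaving out 1 sample gave −0.05 (without siControl replicate 3) to 0.2 for ADH5, and −0.18 to 0.16 (without siControl replicate 1) for ADH6, with 0.04 without siLATS2 replicate 3. Against siLATS2, ADH6 passed after adjustment in DESeq2 and without siControl replicate 1, and in no other setting, with an adjusted p of 0.0191 to 0.619 over the fits that leave out 1 sample.

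After adjustment 13 genes passed in siLATS1 against siControl. The count was 8 with TMM factors over the tested genes, the scaling computed first and replaced after its results were seen, 8 with at least 10 reads in every sample, 5 in edgeR, 166 in DESeq2, 0 with only the 6 samples compared, and 0 to 36 leaving out 1 sample, with 36 without siControl replicate 1 and 0 without any one of siControl replicate 2, siControl replicate 3, siLATS1 replicate 1 or a siLATS2 sample. At the unadjusted threshold the 376 genes became 232 to 703 leaving out 1 sample, and the raised share went from 79.8% to 50.5% without siControl replicate 1. In siLATS2 against siControl 35 genes passed without adjustment, a count that was 72 with a pseudocount of 0.1, 68 in edgeR, 70 in DESeq2 and 11 to 85 leaving out 1 sample, with 60.3% raised in edgeR and 80.0% in limma. In siLATS1 against siLATS2 the 0 genes after adjustment became 3 with no filter, 1 with a pseudocount of 0.5, 100 in DESeq2 and 0 to 19 leaving out 1 sample, 19 without siControl replicate 1 and 4 without siLATS1 replicate 2, and the raised share at the unadjusted threshold was 72.1%, or 83.4% with no TMM factor.

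The replicate numbers were not used as pairs in the main fit. The correlation of deviations from the group means was −0.874 to 0.92 over same-numbered samples, with 5 of 9 above 0.1. It was −0.915 to 0.872 over samples with other numbers. The deviations within a group sum to 0, so these correlations cannot show whether the samples were paired. With the replicate block 0 genes passed after adjustment in siLATS1 against siControl. Apart from that count the cause of these differences was not tested. Depth limits the class I genes, which rest on 1 to 11 reads in all per siControl sample.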
